A study of Mus musculus with 6 samples.

Results

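The deadenylases are the enzymes that shorten poly(A) tails, and so act against the poly(A) polymerases, such as TENT5C, that extend them. The 10 genes described here were taken by name: the CCR4-NOT subunits *Cnot1*, *Cnot2*, *Cnot3*, *Cnot6*, *Cnot6l*, *Cnot7* and *Cnot8*, the genes *Pan2* and *Pan3* of the PAN2-PAN3 complex, and *Parn*. All 10 are among the 54446 genes of the normalized count table, and all 10 passed the mean of 10 normalized counts required for testing. Transcript levels were measured by RNA sequencing in naive splenic B cells that were kept in culture with LPS (20 µg/ml) plus IL-4 (20 ng/ml) over 7 days. There were 3 libraries from *Tent5c* KO and 3 from WT mice of a mixed C57BL/6J X CBA strain, aged 12 to 15 weeks. A replicate was a KO and a WT littermate (pairs 1, 2 and 3 in the following), and both genotypes received the same activation. The KO is carried by every cell of the mouse and is not limited to B cells.

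Most cytoplasmic mRNA decay begins with removal of the tail. PAN2-PAN3 is known to trim long tails, and CCR4-NOT to take off most of the remainder, after which the cap is removed and the body of the mRNA is degraded. CCR4-NOT is brought to particular mRNAs by RNA-binding proteins and by the microRNA machinery, while PARN acts largely on noncoding RNAs in the nucleus.

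The libraries held between 5393558 and 6793520 fragments on genes, the lowest depth being that of the WT library of pair 3. The targeted gene does not separate the genotypes by its level. The KO libraries of pairs 1, 2 and 3 gave 1993, 993 and 1170 normalized counts of *Tent5c*, their WT littermates 1255, 767 and 1585. KO and WT therefore stand here for the libraries labelled so. All 6 B cell markers examined were present, with summed levels of 28824 to 32723 normalized counts in the libraries labelled KO and 27594 to 31710 in those labelled WT. Plasmablast markers (5 of 5 present) summed to 8049 to 15765 and 7905 to 18378. T cell markers, of which 1 of 9 reached a mean of 10, summed to 27.6 to 55.4 in KO and 24.0 to 106 in WT. Myeloid markers (2 of 10) summed to 20.0 to 131 and 64.8 to 90.3, and 4 of them were listed at 0 in all libraries. Erythroid markers summed to at most 5.72 and NK cell markers to at most 11.8 normalized counts in any library.

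None of the 10 deadenylase genes differed between the genotypes beyond the spread of the pairs. Their log2 fold changes between the libraries labelled KO and WT lay between −0.13 (*Parn*) and 0.081 (*Cnot2*), with a median of 0.023. The median over all 12322 genes tested was 0.00067. Without replicate 2 the median of the 10 genes was 0.063, and without replicate 3 it was −0.018. In limma, 0 of the 10 genes had an adjusted *p*-value under 0.05, the smallest adjusted *p*-value being 0.970, and 0 had an unadjusted one under 0.05. The same counts were 0 and 0 in edgeR and in DESeq2. Among all genes tested in limma, 0.0% passed the adjusted threshold (22 genes lower and 1 higher in DESeq2, 0 in edgeR) and 4.7% the unadjusted one (373 lower and 206 higher, or 170 and 126 without the pair in the model). The 95% intervals limit how large a difference could have been missed: they held 0 for all 10 genes and lay within 1.5-fold in either direction for all 10. These are bulk samples, so fewer cells of a type and less RNA per cell cannot be told apart. The counts were scaled by DESeq2 size factors, so a change shared by most transcripts would not be seen.

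**Figure D1:**
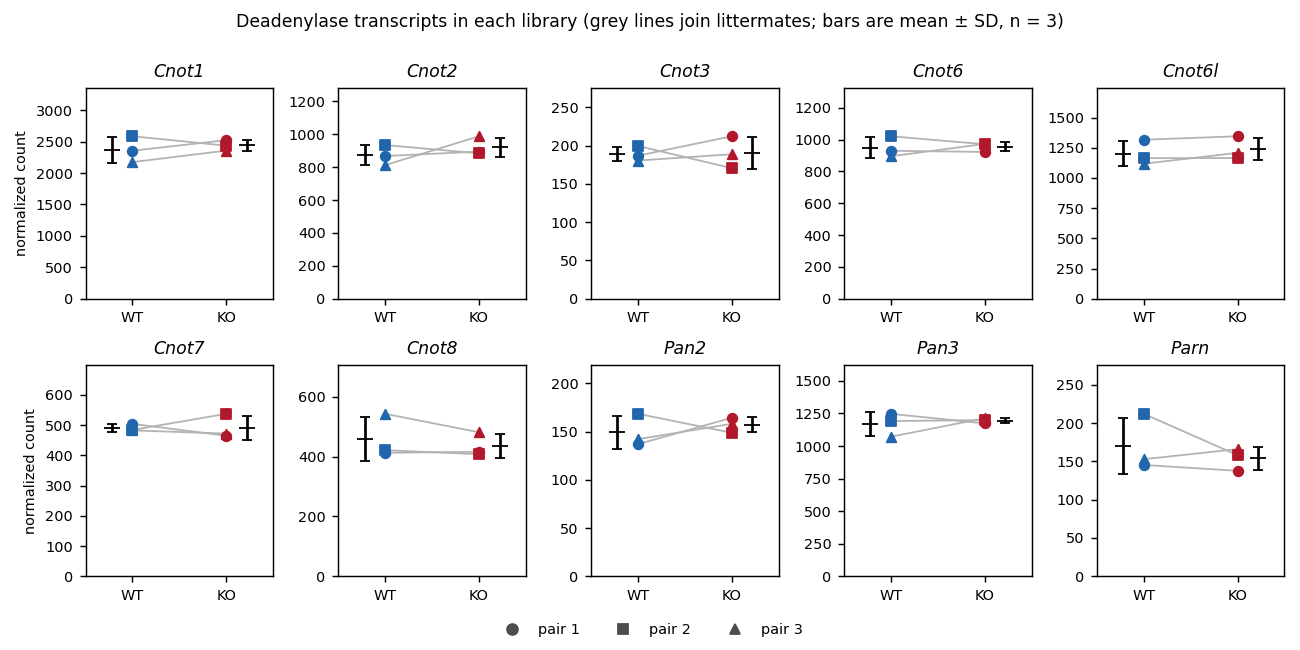
Normalized counts of the 10 deadenylase genes (vertical axes, each from 0) in WT (blue) and KO (red) libraries. Symbols mark the pairs, grey lines join littermates, and black bars are the mean ± SD of 3 libraries. The values of the genotypes overlap for all 10 genes.

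*Cnot1* encodes the scaffold on which CCR4-NOT is assembled, and *Cnot2* and *Cnot3* the proteins that form the NOT module at its C-terminal end. *Cnot1* (ENSMUSG00000036550) is a gene of chromosome 8 (GRCm38, 95719451 to 95807464, minus strand). The KO libraries of pairs 1, 2 and 3 gave 2523, 2435 and 2356 normalized counts, and their WT littermates 2354, 2585 and 2173. The highest and the lowest of these values were both WT libraries, so the KO values fell inside the WT range. The means were 2438 ± 83.3 (SD, n = 3) in KO and 2371 ± 206 (SD, n = 3) in WT. On the log2 scale KO exceeded WT by 0.043, with a standard error of 0.066 and a 95% interval from −0.12 to 0.20 (limma, adjusted *p* = 0.974).

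*Cnot2* (ENSMUSG00000020166, minus strand of chromosome 10, 116485161 to 116581511) had 895, 884 and 988 normalized counts in KO and 868, 935 and 813 in WT. The KO library of pair 3 was the highest and its WT littermate the lowest of the 6, while in pair 2 the order was the opposite. The log2 fold change of 0.081 (standard error 0.085) was the largest positive value among the 10 genes, and its 95% interval ran from −0.12 to 0.28. *Cnot3* (ENSMUSG00000035632, plus strand of chromosome 7, 3645268 to 3661109) had 212, 171 and 189 normalized counts in KO and 187, 200 and 181 in WT. Its KO libraries held both the highest and the lowest value, and its log2 fold change was 0.0070 (95% interval −0.27 to 0.28).

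The catalytic subunits of CCR4-NOT come as pairs of paralogs, of which an assembled complex holds a single member of each. CNOT7 and CNOT8 are the CAF1 type, and CNOT6 and CNOT6L the CCR4 type. Since reads could be shared between such genes, the coding sequences were compared with the 75-nt reads. *Cnot7* and *Cnot8* were identical at 72.3% of 852 aligned coding bases, and their longest common run was 20 bases. *Cnot6* and *Cnot6l* were identical at 73.6% of 1648 bases, again with a longest run of 20. The stretches below, from Gencode vM21, show these runs in capitals with 15 bases on each side in lower case.

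Cnot7: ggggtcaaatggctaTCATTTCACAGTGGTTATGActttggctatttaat
Cnot8: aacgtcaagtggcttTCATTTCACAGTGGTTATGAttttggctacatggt
Cnot6: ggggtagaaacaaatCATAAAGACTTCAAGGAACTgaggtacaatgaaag
Cnot6l: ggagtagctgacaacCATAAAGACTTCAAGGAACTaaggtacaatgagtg

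The first stretch is coding sequence across the junction of exons 4 and 5 of *Cnot7* (GRCm38, chr8:40499416-40500777, minus strand, intron included), and the second that of exons 4 and 5 of *Cnot8* (chr11:58113188-58113973, plus strand). The other pair lies in exon 11 of *Cnot6* (chr11:49677427-49677476, minus strand) and exon 11 of *Cnot6l* (chr5:96080060-96080109, minus strand). Each run is shorter than a read. Of the windows of 75 bases in their annotated transcripts, 0 of 6033 in *Cnot7*, 0 of 6676 in *Cnot6* and 0 of 10426 in *Cnot6l* occurred in a transcript of another gene. In *Cnot8*, 151 of 2558 windows (5.90%) also occurred in *Gm18860*, which had a mean of 16.9 normalized counts. Windows were shared at 5.91% in *Cnot3* and 3.80% in *Cnot1*, with *Gm9207* and *Mir3572* (listed at 0 in all libraries) and with *Gm6158* (mean 3.90 normalized counts). The other 3 genes shared at most 0.257%. The authors' mapping filter left out fragments that map equally well to several places.

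*Cnot7* (ENSMUSG00000031601, minus strand of chromosome 8, 40492540 to 40515847) had normalized counts of 465, 538 and 472 in KO and of 504, 484 and 483 in WT. Its means were 492 ± 39.9 and 490 ± 12.1 (SD, n = 3), and its log2 fold change of 0.00097 was the nearest to 0 of the 10 genes, with a 95% interval from −0.19 to 0.20. *Cnot8* (ENSMUSG00000020515, plus strand of chromosome 11, 58104153 to 58118594) had 416, 408 and 481 in KO and 413, 421 and 543 in WT. Both libraries of pair 3 stood above the other 4, which lay between 408 and 421. The littermates of pair 3 (481 and 543) were themselves further apart than those 4 libraries. For *Cnot8* limma gave a log2 fold change of −0.069 (adjusted *p* = 0.970), with a 95% interval from −0.25 to 0.11. *Gm18860*, which shares part of its sequence, was also highest in pair 3, with 21.8 (KO) and 25.3 (WT) normalized counts against 10.4 to 18.9 in the other 4 libraries. Its part in the level of *Cnot8* was not tested.

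*Cnot6* (ENSMUSG00000020362, minus strand of chromosome 11, 49671503 to 49712723) had 922, 970 and 972 normalized counts in KO and 929, 1020 and 895 in WT. The KO values again lay within the WT range, and the log2 fold change was 0.012 (95% interval −0.15 to 0.18). *Cnot6l* (ENSMUSG00000034724, minus strand of chromosome 5, 96070333 to 96164171) had 1345, 1165 and 1208 in KO and 1316, 1164 and 1117 in WT. Both libraries of pair 1 stood above the other 4, which lay between 1117 and 1208. *Cnot6l* was the only gene of the 10 with the same direction in each pair, KO being the higher by 0.031, 0.0014 and 0.11 on the log2 scale. That is 1 of 10 genes, against 11.7% of all genes tested that were higher in all 3 pairs and 13.1% that were lower in all 3. In limma its log2 fold change was 0.048 (adjusted *p* = 0.970), with a 95% interval from −0.099 to 0.19.

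The balance of the paralogs was compared within each library. The ratio of *Cnot7* to *Cnot8*, in normalized counts, was 1.12, 1.32 and 0.981 in KO and 1.22, 1.15 and 0.889 in WT. It was lowest in both libraries of pair 3. The log2 ratio was higher in KO by 0.070 ± 0.17 (SD, n = 3 pairs), with exact permutation *p* = 0.5 (two-sided). The ratio of *Cnot6l* to *Cnot6* was 1.46, 1.20 and 1.24 in KO and 1.42, 1.14 and 1.25 in WT, and was highest in both libraries of pair 1. Its log2 ratio was higher in KO by 0.036 ± 0.041 (SD, n = 3 pairs), with exact permutation *p* = 0.5 (two-sided), and 3 pairs cannot give less than 0.25. Leaving out a pair moved both differences. That of *Cnot7* to *Cnot8* ranged from 0.0068 (without replicate 2) to 0.17 (without replicate 1), and was 0.035 when replicate 3 was out. That of *Cnot6l* to *Cnot6* was 0.017 without replicate 2 and 0.058 without replicate 3.

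**Figure D2:**
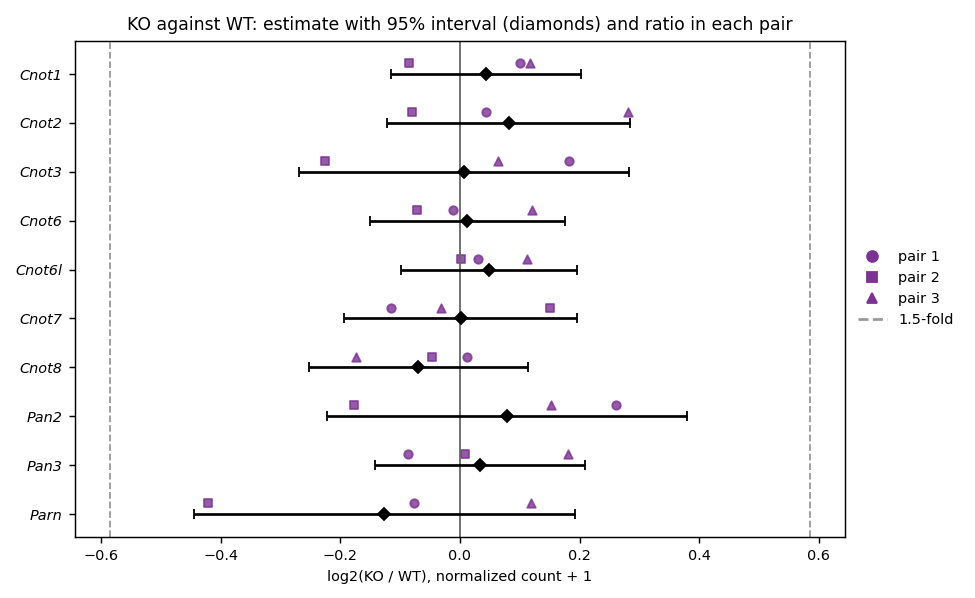
Log2 ratio of KO to WT (horizontal axis, normalized count + 1) of the 10 genes. Diamonds with bars are the limma estimates and 95% intervals, purple symbols the ratios in pairs 1, 2 and 3, and dashed lines mark 1.5-fold. All 10 intervals hold 0 and lie between the dashed lines, while the pairs fall on both sides of 0 for every gene except *Cnot6l*.

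In the PAN2-PAN3 complex PAN2 carries the nuclease and PAN3 binds the poly(A) tail and its binding protein. *Pan2* (ENSMUSG00000005682, plus strand of chromosome 10, 128303335 to 128321358) had 164, 149 and 158 normalized counts in KO and 137, 168 and 142 in WT. The KO values lay within the WT range. It had a log2 fold change of 0.078 (standard error 0.13), with ratios of 0.26, −0.18 and 0.15 in pairs 1, 2 and 3. *Pan3* (ENSMUSG00000029647, plus strand of chromosome 5, 147430161 to 147548502) had 1174, 1199 and 1214 in KO and 1248, 1192 and 1072 in WT. Relative to their mean its KO libraries were the closest together of the 10 genes (1196 ± 20.2, SD, n = 3), inside a WT range with a SD of 89.9. Its log2 fold change was 0.034 (95% interval −0.14 to 0.21).

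*Parn* (ENSMUSG00000022685, minus strand of chromosome 16, 13537960 to 13668170) had normalized counts of 138, 158 and 166 in KO and of 145, 212 and 153 in WT. The WT library of pair 2 stood above the other 5, which lay between 138 and 166. Its log2 fold change of −0.13 (limma, adjusted *p* = 0.970) was the lowest of the 10, and it rested on that pair, whose ratio was −0.42. Without replicate 2 the log2 fold change of *Parn* was 0.021. The 95% interval from −0.45 to 0.19 was also the widest, and allows from 0.734-fold to 1.14-fold the WT level. *Parn*, *Pan2* and *Cnot3* had the fewest fragments, and the fragments behind a value ranged from 118 (*Pan2*) to 2673 (*Cnot1*) per library. Counting alone gives a SD of 0.13 at the fewest and 0.028 at the most on the log2 scale.

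Compared per length, as FPKM (fragments per kilobase of annotated exons, scaled to the fragments on genes of each library), the levels of the 10 genes spanned 12.2-fold. *Cnot2* was highest, at 36.3 ± 2.59 in KO and 33.5 ± 2.69 in WT (SD, n = 3), above 87.6% of the genes tested. *Cnot8* followed at 26.5 ± 2.69 and 27.2 ± 3.89, and the ranges of *Cnot2* and *Cnot8* overlapped, although *Cnot2* was higher in 5 of 6 libraries. *Cnot6* (mean 22.8 over the 6 libraries), *Cnot1* (22.2) and *Cnot6l* (18.8) came next, with ranges that overlapped from each to the next. *Cnot6* was above *Cnot1* in 5 of 6 libraries and *Cnot1* above *Cnot6l* in 6 of 6. The ranges of *Cnot7* and *Pan3* overlapped too, with means of 13.4 and 12.5, and *Cnot7* was the higher in 5 of 6 libraries. *Parn* (4.78) overlapped with *Cnot3* (4.22) and was the higher in 5 of 6. *Pan2* was the lowest at 2.97 ± 0.148 in KO and 2.76 ± 0.318 in WT (SD, n = 3), above 25.6% of the genes tested. Per length, *Pan3* thus exceeded its catalytic partner *Pan2*, and *Cnot8* exceeded *Cnot7*, in all 6 libraries. The ratio of *Cnot7* to *Cnot8* per length was 0.403 to 0.597, and that of *Cnot6l* to *Cnot6* was 0.731 to 0.935.

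The length assigned to a gene moves this order, since exons of rarely used transcripts count towards it. With the length of the longest protein-coding transcript, an alternative added with the levels known, *Cnot2* remained highest and *Pan2* lowest, 9.31-fold apart. *Cnot1* moved from rank 4 to 2 (45.4 FPKM) and *Pan3* from rank 7 to 3 (33.9). The ratio of *Cnot7* to *Cnot8* was then 0.626 to 0.928 over the 6 libraries and that of *Cnot6l* to *Cnot6* 0.764 to 0.977.

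**Figure D3:**
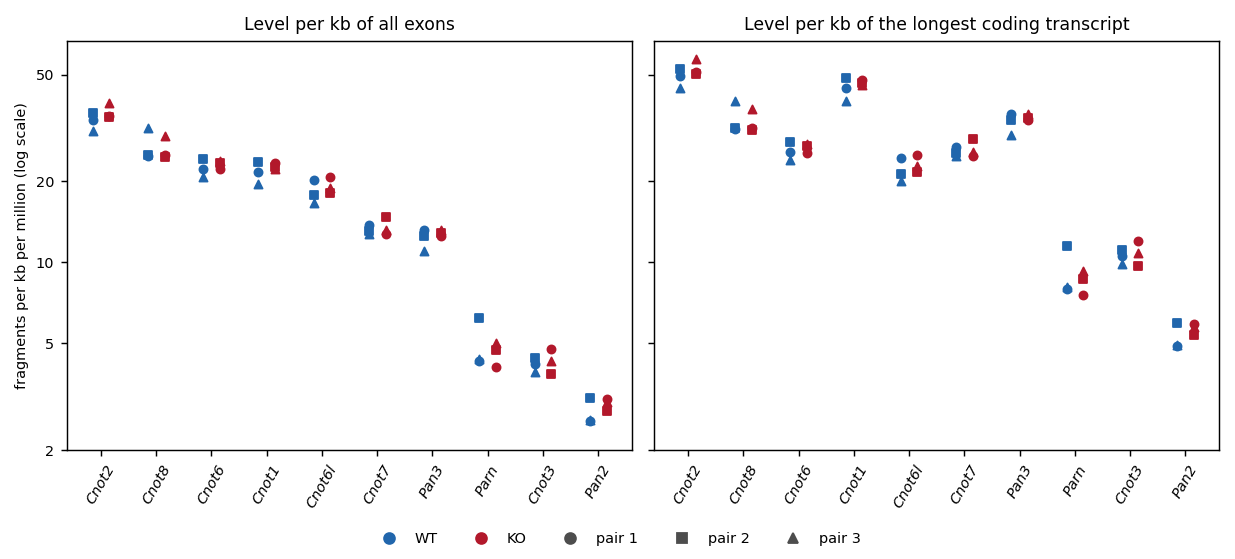
Level of each gene in FPKM (log axis), over all annotated exons (left) and over the longest protein-coding transcript (right), in WT (blue) and KO (red) libraries of pairs 1 to 3. *Cnot2* is highest and *Pan2* lowest in both panels, and WT and KO symbols overlap for each gene.

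For the 10 genes, the distance between the lowest and the highest library was 0.19 (*Cnot6*) to 0.62 (*Parn*) on the log2 scale, with a median of 0.27. The medians were 0.45 over all genes tested and 0.37 over those averaging 50 or more normalized counts. The comparison was not matched for level, and counting error spreads low genes more. The median level was 694 normalized counts for the 10 genes, 179 for all genes tested and 264 for those averaging 50 or more. The largest log2 fold change in size, that of *Parn*, was exceeded by 38.6% of all genes tested and by 29.5% of those with a mean of at least 50. For 8 of the 10 genes, the littermate pair took a larger share of the sum of squares than the genotype did, as it did for 77.7% of all genes tested. The pair has 2 of the 5 degrees of freedom and the genotype 1, so noise alone would give them 40% and 20% of the sum of squares on average, and a larger share of the pair is not by itself an effect of the pair. The median share of the genotype was 6.06% for the 10 genes and 10.05% for all genes tested, and that of the pair 46.0% and 47.3%. The pair took 88.2% of the sum of squares in both *Cnot6l* and *Cnot8*, a share reached by 8.68% of all genes tested. *Cnot2* and *Pan2* were the exceptions, with more taken by the genotype (21.7% and 13.3%) than by the pair (4.32% and 11.5%), and most left in the residual.

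**Figure D4:**
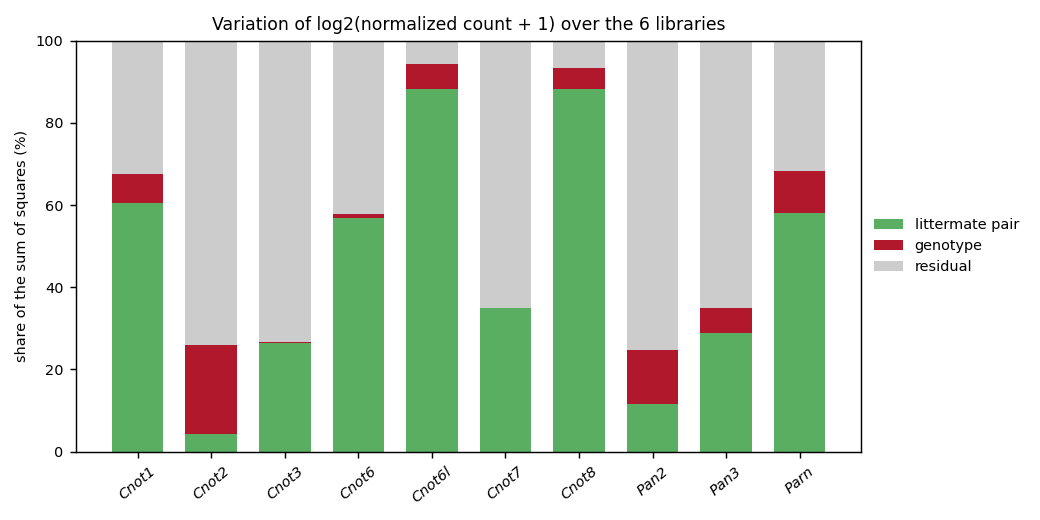
Share of the sum of squares of log2(normalized count + 1) over the 6 libraries (vertical axis, percent) taken by the littermate pair (green), the genotype (red) and the residual (grey). The pair takes 88.2% in *Cnot6l* and *Cnot8*, and the genotype at most 21.7%, in *Cnot2*.

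The pairs did not agree in direction. Pairs 1, 2 and 3 gave median log2 ratios of 0.021, −0.077 and 0.12 for the 10 genes, beside −0.0093, 2.5e-05 and 0.0032 for all genes tested. In pair 1, 6 of the 10 genes were higher in KO. In pair 2, 7 were lower, and in pair 3, 8 were higher, against 50.4% of all genes tested in that pair. In 5 of the 10 genes (*Cnot1*, *Cnot2*, *Cnot6*, *Cnot6l* and *Pan3*) the lowest library was the WT library of pair 3, which was also the library with the fewest fragments, and which was lowest in 21.9% of all genes tested. Cell type markers moved between the littermates of pair 3 as well, with a median log2 ratio of −0.50 for plasmablast and 0.26 for B cell markers, where pair 1 had 0.42 and −0.11. The part of depth and of these markers in the ratios was not tested. The values of the genotypes did not separate for any of the 10 genes, beside 6.83% of all genes tested that did. Over so few genes this is no departure from the share of all genes.

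*Cnot1* was compared with all genes tested for likeness of pattern. The genes with the highest Pearson correlation of log2 values over the 6 libraries were *Acadl* (0.986), *Helz* (0.985) and *Gm22571* (0.979). These are descriptions over 6 libraries that share their scaling, and many genes reach high values over so few points. Among the deadenylase genes, *Pan2* (0.759) and *Cnot6* (0.699) were the most alike to *Cnot1*, *Cnot7* was not (−0.033), and *Cnot8* ran the opposite way (−0.805). Among all genes tested, *Pan2* ranked only 573 and *Cnot6* 875 by this correlation.

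Related genes were then counted in 5 lists, in which edgeR and DESeq2, fitted with the pairs, also gave 0 genes past either threshold. The unadjusted threshold, but not the adjusted one, was passed by 1 or 2 genes of some lists when a replicate, the filter or the pair was left out. Without the filter, 502 genes lower and 377 higher passed it among all 24684 tested. With a replicate left out, 292 to 627 lower and 143 to 245 higher did so among 12322. Further genes listed by name as CCR4-NOT subunits gave 0 of 4 past either threshold in limma, with a median log2 fold change of 0.044. Whether each belongs to the complex in these cells was not examined. *Cnot10*, of the module at the N-terminal end of CNOT1, had 482, 493 and 515 normalized counts in KO and 505, 412 and 427 in WT, a log2 fold change of 0.15 (95% interval −0.069 to 0.37). Its partner *Cnot11* had one of −0.10, with 159, 215 and 219 in KO and 199, 204 and 230 in WT. *Cnot9*, which binds peptides of RNA-binding proteins, had 0.035, and the ubiquitin ligase *Cnot4* had 0.053, with its KO library above its WT littermate in all 3 pairs.

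Of 6 further genes listed as deadenylases, 5 were tested, with 0 past either threshold in limma and a median log2 fold change of −0.045. The list was made by name, and whether each enzyme shortens poly(A) tails was not examined. *Noct*, the rhythmically expressed nocturnin, had 35.9, 100 and 42.7 normalized counts in KO and 49.1, 105 and 63.8 in WT. It was lower in KO in all 3 pairs, but its levels differed far more between pair 2 and the others than within a pair. In limma its log2 fold change was −0.36 (adjusted *p* = 0.970), with a 95% interval from −0.78 to 0.063. *Angel2*, *Pde12* (a mitochondrial 2′,5′-phosphodiesterase), *Toe1* (a nuclear enzyme that trims small RNAs) and *Angel1* had log2 fold changes of 0.0075, −0.059, −0.045 and 0.027. *Pnldc1*, a trimmer of piRNAs in the germ line, was below the level required for testing, with at most 10.8 normalized counts.

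Factors that bring deadenylases to mRNAs gave 0 of 22 tested genes past either threshold in limma (26 in the list), with a median log2 fold change of 0.061. Of these, 18 were positive, beside 6187 of the 12322 genes tested, and 5 (*Btg3*, *Tob2*, *Tnrc6a*, *Tnrc6b* and *Ago3*, named after their values were seen) were higher in KO in all 3 pairs, beside 11.7% of all genes tested. In fits with 1 replicate left out, 1 or 2 of the list passed the unadjusted threshold, and 1 without the pair in the model. Of the 12322 genes tested, 627 lower and 238 higher passed it without replicate 1, and 292 and 143 without replicate 2. Without replicate 3 there were 332 and 245, and without the pair in the model 170 and 126. The values of the genotypes did not overlap for 1 of the 22, beside 6.83% of all genes tested. This was *Btg3*, an antiproliferative protein of the BTG/TOB family that binds CNOT7 and CNOT8. It had 52.9, 40.03 and 52.7 normalized counts in KO and 35.9, 35.5 and 32.5 in WT. By limma its log2 fold change was 0.46 (adjusted *p* = 0.970), and the 95% interval from −0.026 to 0.95 held 0. The most abundant of the list were *Pum2*, a Pumilio protein, and *Tnrc6b*, a GW182 protein of microRNA silencing. Their log2 fold changes were 0.033 and 0.066.

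Decapping and 5′ decay, the steps that follow deadenylation, gave 0 of 20 genes past either threshold in limma, with a median log2 fold change of 0.030. In all 3 pairs 5 of the 20 were lower and 3 higher in KO, beside 13.1% and 11.7% of all genes tested. The helicase *Ddx6* was the most abundant, with 3425, 2902 and 3213 normalized counts in KO and 3198, 3030 and 2821 in WT and a log2 fold change of 0.075. *Lsm14a*, a partner of DDX6, had one of −0.014.

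On the opposing side, poly(A) polymerases and poly(A)-binding proteins gave 0 of 10 tested genes past either threshold in limma (12 in the list), with a median log2 fold change of 0.0055. *Pabpc1*, the main cytoplasmic poly(A)-binding protein, had a log2 fold change of 0.035 and *Papola*, the canonical nuclear poly(A) polymerase, one of 0.028. *Tent5c* had one of 0.20 (standard error 0.19, 95% interval −0.26 to 0.66).

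**Figure D5:**
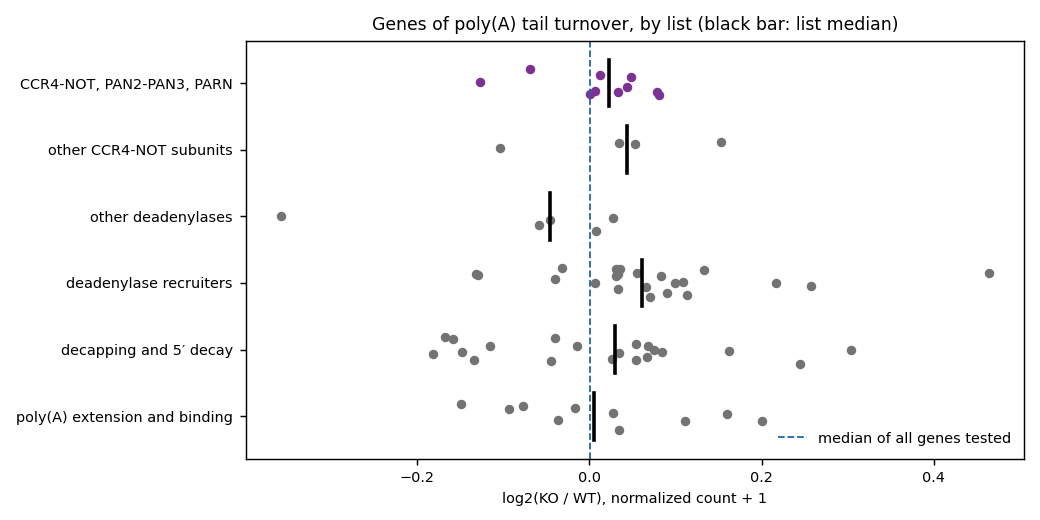
Log2 ratio of KO to WT (horizontal axis, normalized count + 1) for the 10 deadenylase genes (purple) and the tested genes of 5 related lists (grey). Black bars are the list medians, from −0.045 to 0.061, and the dashed line is the median of all genes tested.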

How the data were processed

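The authors trimmed reads with cutadapt and aligned them with STAR (version 2.6.1a in the submitters' processing notes) to GRCm38. With featureCounts of Subread 1.6.3 they counted fragments with both ends mapped, leaving out chimeric ones, by strand on exons of Gencode vM19. They deposited the counts divided by DESeq2 size factors, a signal on the count scale. All values above 0 (100%, tolerance 0.001 fragments) were multiples of the value of 1 fragment in their library, so the fragments could be recovered. Names, positions and exon lengths came from Gencode vM21 (GRCm38), which matched 54409 of 54446 identifiers. Exons of *Cnot1*, *Cnot2*, *Cnot3* and *Cnot7* overlap genes of the opposite strand over 0.769% to 6.07% of their length, and counting used strand. Those of *Cnot3* also overlap *Mir3572* on the same strand over 86 bases (1.21%), which strand cannot tell apart. *Mir3572* had a mean of 0 normalized counts.

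Testing required a mean normalized count of 10 or more and was done with limma 3.58.1 (R 4.3.3) on log2(normalized count + 1), a scale that understates changes of low genes, fitting genotype and pair, with two-sided *p*-values and Benjamini-Hochberg adjustment over 12322 genes and a threshold of 0.05. edgeR 4.0.16 (quasi-likelihood) and DESeq2 1.42.0 took the recovered fragments, as alternatives, and scripts were tested on simulated data. Littermates pair the samples, as the methods state, and their deviations from the group means correlated at 0.328, 0.685 and 0.170 in pairs 1, 2 and 3, where the KO library's largest correlation with a WT library of another number was 0.260, −0.34 and 0.282, so that in pair 3 another number was closer. No libraries were duplicates (chi-square per gene of 4.82 to 24.3 over 15 library pairs). Between 18730 and 19663 genes had a fragment in each library. A count of 0 allows up to 3 fragments. This covers counting error only, as do SDs from counting.

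The members and lists were chosen with earlier results of these data known. Named were all 10 genes, the tested genes of the lists of other subunits and deadenylases, and, of the longer lists, genes under an unadjusted *p* of 0.05 (0 in each) and the 2 most abundant, and *Tent5c*. *Btg3*, *Tob2*, *Tnrc6a* and *Ago3* (same direction in all pairs) and the untested *Pnldc1* were named outside this rule with their values known, and so were genes that share sequence with a member. The alternatives were other pseudocounts, filters, scalings and tests, the fit without the pair, and each replicate left out. Amino acid sequences were not used here.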

Additional observations from a re-analysis of the deposited data

How the results depend on the processing

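The deadenylase genes stayed without a call under every alternative run: 0 of the 10 had an adjusted *p*-value under 0.05 under the other pseudocounts (0.5 and 5), filters (none, and a mean of at least 50), scalings (TMM, quantile, and median ratios without Ig genes), tests (edgeR and DESeq2) and replicates left out, and the smallest adjusted *p*-value was 0.815. That value came from limma without a filter, where it was also the smallest of all 24684 genes tested. Under the other pseudocounts, filters and scalings and in edgeR, 0 of all genes tested passed, so 0 of the 10 is not particular to them. Without the replicate block there were again 0 calls at the adjusted threshold, over the 10 genes and over all genes, and the estimates in limma (median log2 fold change 0.023) cannot move with the pairing. At the unadjusted threshold, genes lower and higher fell from 373 and 206 to 170 and 126, and 1 deadenylase recruiter in place of 0 passed. With 1 replicate left out the median of the 10 genes ran from −0.018 to 0.063, and the KO to WT differences of the log2 ratios from 0.0068 to 0.17 (*Cnot7* to *Cnot8*) and from 0.017 to 0.058 (*Cnot6l* to *Cnot6*). In those fits up to 2 recruiters and up to 1 gene of 3 other lists passed the unadjusted threshold. Among all 12322 genes tested, the same fits gave 292 to 627 lower and 143 to 245 higher at that threshold. Over all genes, DESeq2 called 22 lower and 1 higher where limma and edgeR called 0. Leaving out replicates in turn gave 0 to 168 calls lower in KO and 0 to 3 higher, the most (168 and 3) when replicate 1 was out. None of these was a deadenylase gene. The cause was not tested.

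The 10 log2 fold changes were recomputed 140 times in all, of which 131 had the direction first reported and 9 the opposite. In limma, another filter or a fit without the pair cannot move an estimate, so agreement there was fixed in advance. Of the 9 opposite values, 8 came with 1 replicate left out, and 7 of the 10 genes changed direction in such fits. *Cnot7* was −0.0019 under scaling without Ig genes. With 1 replicate left out, log2 fold changes ran from −0.019 to 0.16 for *Cnot2*, −0.081 to 0.12 for *Cnot3*, −0.042 to 0.055 for *Cnot6*, −0.074 to 0.059 for *Cnot7*, −0.013 to 0.21 for *Pan2*, −0.039 to 0.094 for *Pan3* and −0.25 to 0.021 for *Parn*. Those of *Cnot1* (0.0069 to 0.11), *Cnot6l* (0.016 to 0.071) and *Cnot8* (−0.11 to −0.017) moved but kept their direction, as they did under the other alternatives run. Quantile normalization moved the median of all genes by 0.016 only. Depth limits *Pan2*, *Parn* and *Cnot3* most.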
